A study of Mus musculus with 4 samples.

Results

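The m6A landscape of unperturbed mouse macrophages was described from the 16709 peaks that the authors called in 1 wild-type (WT) immunoprecipitated library against its input library, out of 37740 peaks in the 2 deposited lists of the series. Every peak of that list was a member, and no value was used to choose among them. The series holds 4 libraries of bone-marrow-derived macrophages from C57BL/6 mice, grown for 7 days with macrophage colony-stimulating factor (M-CSF). The WT cells carried Mettl3fl/fl alleles, in which the gene of the catalytic m6A writer subunit is flanked by loxP sites but not cut, and no Cre recombinase. The other genotype, LysM-cre with Mettl3fl/fl, was not used here. How many mice gave the cells is not stated in the labels. With 1 WT IP and 1 WT input library there is no replicate, no value below has a test, and the 95% intervals (exact, Clopper-Pearson) stand for counting error alone, as if peaks or genes were independent. The depth of the libraries is unknown, since the files hold no read totals.

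N6-methyladenosine (m6A) is a common internal mark of messenger RNA. A nuclear complex built on METTL3 and METTL14 writes it, most often in a short motif with GGAC at its core. FTO and ALKBH5 remove it, and proteins with a YTH domain bind it and affect the splicing, translation and decay of the marked RNA. In m6A-seq, poly(A) RNA is fragmented and precipitated with an antibody against m6A (IP), and a peak is a stretch of transcript with more IP than input reads. The antibody also binds m6Am, a related mark on the first transcribed base of many mRNAs, and the share of peaks near transcript starts that holds m6Am was not tested. Each peak carries the authors' own fold enrichment (how many times IP exceeds input), p-value and false discovery rate (FDR). These values describe and rank peaks within the list and nothing more.

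The labelled cell type was compared with its markers in the input library. Input levels in FPKM (fragments per kilobase of transcript, scaled to the library total) are listed for 13 of 26 macrophage surface genes and sum to 14700 FPKM. Lyz2 (lysozyme) stood at 10500, Cd68 at 1030 and Adgre1 (F4/80) at 247 FPKM. Of 14 neutrophil markers, S100a9 (155 FPKM) and S100a8 (77.7 FPKM) have a listed level. Of the osteoclast markers, 3 sum to 292 FPKM, of which Atp6v0d2 gives 274, the dendritic cell list has Itgax at 71.9, and the B cell list has Cd79b at 1.12 FPKM. No member of the T and NK, erythroid, mast cell, stromal or progenitor lists has a listed level. Levels are deposited for genes of the table that compares the genotypes and not for the others, so a missing level is not a level of 0.

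The 30-base windows below are examples of sequence under strong peaks that cover a RefSeq transcript start. They were taken from RefSeq promoter entries (GRCm38.p6, the assembly called mm10) for genes whose first 50 transcribed bases lie wholly in a peak annotated to the 5′ UTR of that gene, with an FDR of at most 0.05 and GGACT among those bases. Windows of 4 such genes of high fold are given 5′ to 3′ on the transcribed strand, with GGACT in capitals.
Senp3: gGGACTgccacacgcggcaagccaggcgac
Mob2: gctccgcgcagccatGGACTggctcatggg
Ptch1: gcaaagacctcgGGACTcacgcgcaatgtg
Rbbp6: accccgcggggtcattcGGACTctaacgtg

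The Senp3 window is chr11:69682055-69682084 on the minus strand, and its GGACT begins at base 2 of the transcript. Senp3, a SUMO protease, had a peak of 283-fold there over 953 exonic bases. Mob2, a kinase regulator, has its motif at base 36 (chr7:142060985-142061014, minus strand) under a 44.9-fold peak. Ptch1, the Hedgehog receptor, has it at base 19 (chr13:63565700-63565729, minus strand) under a 24.5-fold peak. Rbbp6, an E3 ubiquitin ligase of RNA processing, has it at base 38 (chr7:122970584-122970613, plus strand) under a 23.5-fold peak. The peaks over Ptch1 (chr13:63545299-63573598) and Rbbp6 (chr7:122965686-122975781) reach well upstream of the start used. Their motif positions are therefore not counted from the 5′ end of the peak. These windows were chosen for the motif, so they say nothing of how often it occurs.

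Within the first 50 bases of all starts the motif shares lay close together with and without a peak, with overlapping intervals for GGAC. Peaks can be much longer than this window, with a median of 391 exonic bases for those in 5′ UTRs. A motif elsewhere in a peak was not counted, so these shares cannot show whether the peaks hold the motif. Of 1263 protein-coding starts whose first 50 bases lay wholly in a peak, 19.8% (17.6 to 22.1) held GGAC on the transcribed strand, against 20.7% (19.7 to 21.7) of 6321 starts of genes with a peak elsewhere and 19.7% (19 to 20.4) of 13147 starts of genes without one. GGACT, which contains GGAC, was found in 5.54%, 5.35% and 6.16%, and in 5.86% of all 21263 starts. GAACT was found in 3.33%, 3.62% and 4.05%, and AAACT in 2.45%, 2.28% and 3.32%. The first transcribed base was A in 27.7% (25.3 to 30.3) of starts in a peak, 29.3% (28.2 to 30.5) of starts of genes with a peak elsewhere and 42.5% (41.7 to 43.4) of starts of genes without a peak. GC content of the first 50 bases moved in the other direction, with means of 66.1%, 64.2% and 57.3%, and its part in the base count was not tested. Each start wholly in a peak was given the covering peak of highest fold. That peak was annotated to a 5′ UTR for 65.4% of the 1263 starts and to a 3′ UTR for 29.8%.

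Most WT peaks were annotated to 3′ UTRs. Each peak has a single part label, and a labelled peak can also cover other parts of its transcript. Peaks labelled 3′ UTR that overlap their gene came within 1000 bases of the RefSeq gene start in 10.9% of cases. The authors' annotation put 9961 peaks (59.6%; 58.9 to 60.4) in a 3′ UTR, 4582 (27.4%; 26.7 to 28.1) in another exon and 2166 (13.0%; 12.5 to 13.5) in a 5′ UTR. Peaks in 5′ UTRs had a median fold of 4.12 (quartiles 2.33 to 8.16), those in exons 3.74 (2.06 to 7.25) and those in 3′ UTRs 3.57 (2.04 to 8.16). The quartile ranges of the 3 parts overlapped. An FDR of at most 0.05 was listed for 74.4% of 3′ UTR peaks (73.5 to 75.2), 73.8% of 5′ UTR peaks (71.9 to 75.7) and 59.5% of exon peaks (58.1 to 60.9), beside 70.2% of all peaks. Of all peaks, 18.1% were at least 10-fold, with 19.3%, 18.2% and 15.3% in 3′ UTRs, 5′ UTRs and exons.

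The share in 3′ UTRs was highest at both ends of the enrichment scale. It was 63.1% (61.5 to 64.6) of the 3841 peaks under 2-fold, 59.1% between 2- and 4-fold, 55.1% (53.7 to 56.4) between 4- and 10-fold and 63.6% (61.8 to 65.3) of the 3016 peaks of at least 10-fold. Exon peaks made up 30.0% of the class from 4- to 10-fold and 23.3% of the highest class. Peak length moved with enrichment. Peaks of up to 200 exonic bases had a median fold of 1.87, those over 200 and up to 500 bases 2.74, those over 500 and up to 1000 bases 5.10 and those over 1000 bases 9.95 (quartiles 6.20 to 16.3). The median exonic length was 391 bases (210 to 930).

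**Figure D1:**
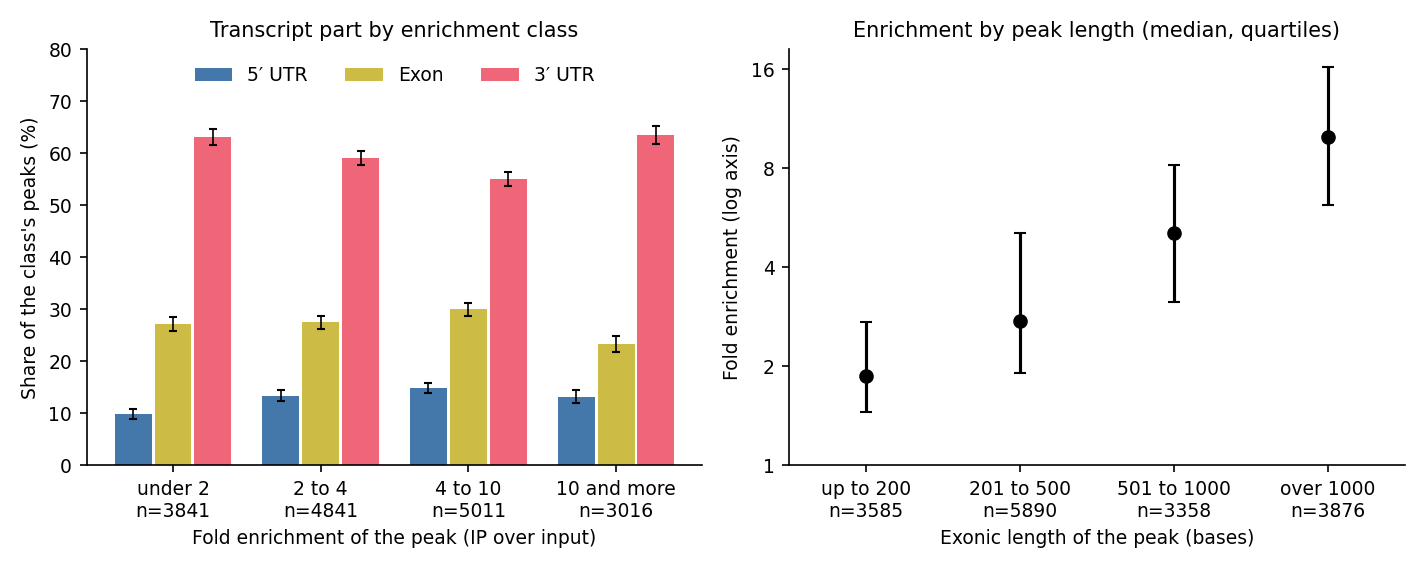
Left, share of peaks (%, bars with 95% exact binomial intervals) in 5′ UTRs, other exons and 3′ UTRs within 4 classes of the authors' fold enrichment; right, median fold enrichment (points, log axis) with quartiles (lines) in 4 classes of exonic peak length. The 3′ UTR share is 63.1% in the lowest and 63.6% in the highest enrichment class, and the median fold goes from 1.87 in the shortest to 9.95 in the longest peaks.

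Many peaks crossed splice junctions. More than 1 exonic block was listed for 38.8% of all peaks, for 57.3% of those in 5′ UTRs, 37.3% of those in exons and 35.5% of those in 3′ UTRs. Peaks annotated to a 3′ UTR and overlapping their gene reached to within 100 bases of the RefSeq gene end in 31.7% (30.7 to 32.8) of 7217 cases and to within 1000 bases in 53%. For 5′ UTR peaks, 42.0% of 2031 came within 100 bases of the gene start and 71.0% within 1000 bases. Of the exon peaks, 45.4% lay in an internal exon (median fold 2.85), 21.3% in a last exon (4.08), 17.4% in a single-exon transcript (6.12) and 15.9% in a first exon (4.97). By these labels internal exons had the lowest median of the 4 positions. The labelled exon belonged to the assigned gene for 82.6% of exon peaks, and for the others the position refers to another gene model.

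The peaks named 9873 genes. Among 21900 RefSeq protein-coding genes, 35.2% carried at least 1 peak (7714 genes; 34.6 to 35.9). Long noncoding RNA genes carried one in 3.65% (465 of 12731) and pseudogenes in 4.75% (496 of 10442). Protein-coding genes were named by 82.4% of all peaks. Of the 639 peaks named for long noncoding RNAs, 74.6% were annotated to an exon, and their median fold was 6.28, beside 3.57 for protein-coding genes. The authors list each peak with an assigned gene and the distance to its transcript start, and that gene need not be the one the peak lies in. Of peaks with a gene found in RefSeq, 84.2% (83.6 to 84.8) overlapped that gene. When each peak was instead given to the 1 protein-coding gene it overlapped, 7841 genes (35.8%) had a peak. Counts and highest folds of lists and families below follow the authors' names unless they are given by overlap. Each share with a peak is to be read beside the 35.2% of all protein-coding genes. That 35.2% counts all RefSeq genes, expressed in these cells or not, and the part of expression in the shares was not tested.

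Chromosomes differed in the share of their protein-coding genes with a peak. It was 43.9% (40.9 to 47.0) on chromosome 8 and 28.6% (25.5 to 31.7) on chromosome 14, the highest and lowest autosomes, and 193 of 966 genes (17.5 to 22.6%) on the X. Of 256 protein-coding genes on the Y, 0 carried a peak, which allows a share of up to 1.43%. The sex of the mice is not among the sample labels used here. Xist, the RNA that coats the inactive X, had a listed input level of 36.2 FPKM. Whether Y genes were expressed in these cells was not tested, so the 0 does not describe m6A on Y transcripts. On the mitochondrial chromosome, which encodes subunits of the respiratory chain and is transcribed inside the organelle, there were 15 peaks. Their folds ran from 1.99 to 17.6 with a median of 5.75, and 14 had an FDR of at most 0.05. The 17.6-fold peak spanned Nd4 of complex I (MT:10167-11544), one of 7.48-fold spanned its neighbour Nd4l (MT:9877-10173), and others covered genes from Nd1 to Cytb.

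Most genes with a peak had 1. By the authors' names, 57.6% of the genes (56.6 to 58.6) had 1 peak, 26.1% had 2, 9.99% had 3, 3.95% had 4 and 2.35% (232 genes) had 5 or more, a mean of 1.69. The 232 genes became 71 with peaks of an FDR of at most 0.05, 23 with a fold of at least 4 and 5 with a p of at most 1e-10. The list repeats some stretches, because 2344 peaks (14.0%) share an exonic base with another peak, and 15430 distinct regions remained after joining them. Counted as distinct regions, 60.8% of the genes had 1. Counted by overlap with 1 RefSeq gene, 52.0% did, with a mean of 1.83.

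Genes with more peaks were longer and had a larger share of their peaks in exons outside the UTRs. The median genomic extent was 19.3 kb for protein-coding genes with 1 peak and 42.4 kb for those with 5 or more. Over the same classes the exon share of peaks went from 13.9% to 39.4% and the 3′ UTR share from 73.4% to 49.1%. The strongest peak of a gene also differed, with a median of 3.92-fold for genes with 1 peak and 9.18-fold for genes with 5 or more, while the median over all their peaks was 3.92 and 3.10. The highest of several peaks is taken over more values in the second class, and its part in this was not tested. By the part labels, 54.3% of the 7714 protein-coding genes had peaks in the 3′ UTR alone. Another 12.1% had them in exon and 3′ UTR, and 772 genes in both UTRs. Exons alone had them in 9.37% and the 5′ UTR alone in 7.52%. Peaks in 5′ UTR and exon were found in 3.01%, and in all 3 parts in 3.69%.

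**Figure D2:**
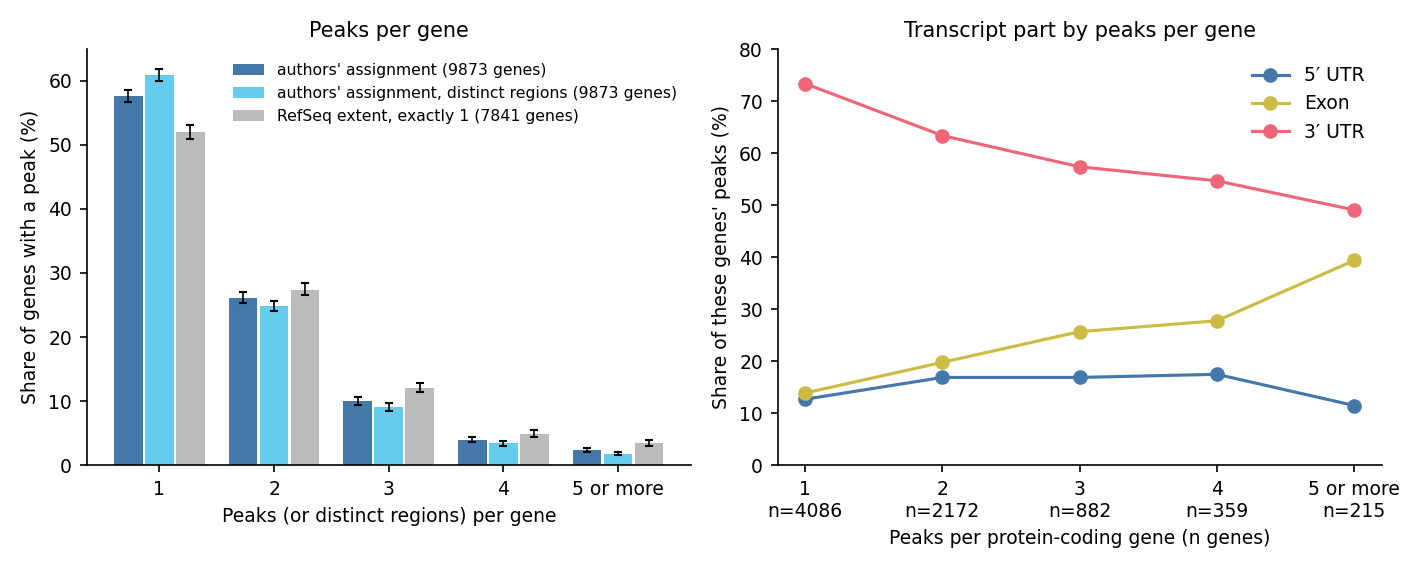
Left, share of genes with a peak (%, bars with 95% exact binomial intervals) that have 1 to 5 or more peaks, by the authors' gene names, by distinct regions and by overlap with exactly 1 RefSeq gene; right, share of peaks (%) in each transcript part for protein-coding genes with 1 to 5 or more peaks. One peak per gene is the largest class under each count (57.6%, 60.8% and 52.0%), and the exon share goes from 13.9% to 39.4% as genes have more peaks.

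Among the genes with the most peaks, several carried them mainly in exons outside the UTRs. Zfp469, a zinc finger gene on chromosome 8, had 15 peaks in 15 regions, 13 of them in exons, with folds from 2.30 to 19.4. Ahnak, which encodes a giant scaffold protein at the membrane, had 15 peaks, 12 in exons, and folds from 1.11 to 4.83. Mki67, the proliferation antigen Ki-67, had 13, of which 11 were in exons and none exceeded 3.92-fold. Macf1, a cytoskeletal linker, had 10 with 8 in exons, and Stard9, a mitotic kinesin, 10 with 9 in the 3′ UTR, 2 of which lay outside the gene. Genes with 9 peaks included Tnrc18, Hnrnpm (5 of them within the gene), Syne2 (nuclear envelope nesprin), Son (a splicing speckle protein) and Ugt1a1. The median fold was 1.29 in Ahnak, 2.14 in Mki67 and 1.59 in Son, against 6.12 in Zfp469.

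Some high counts were a single stretch listed many times. Pcdhgc4, a gamma protocadherin on chromosome 18, headed the list with 20 peaks, all in the 3′ UTR, that formed 1 region; genes of this cluster share their last exons. Ugt1a1, which shares its last exons with the other Ugt1a genes, had 9 peaks in 1 region. Ahnak2 had 10 peaks in 3 regions, one of them at 268-fold (chr12:112777635-112781011). All 8 peaks named for Smim8 lay in Zfp292 instead and reached 28.0-fold. By overlap with 1 gene, Ahnak had 16 peaks, and the lysine methyltransferase genes Kmt2a and Kmt2d had 10 and 9.

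The peaks along Ahnak and Mki67 are given as examples. In Ahnak (chromosome 19), the 3 strongest were a 4.83-fold 5′ UTR peak of 2010 exonic bases, a 4.69-fold exon peak of 1830 bases and a 3.81-fold exon peak of 2070 bases near the end of the coding exon. The others ran from 1.11- to 2.09-fold, and those of 1.11- and 1.12-fold had an FDR above 0.05. In Mki67 (chromosome 7), exon peaks of 3.92-, 3.64- and 3.17-fold stood among others of 1.76- to 2.35-fold, and the 3′ UTR peak was 1.67-fold. That 3′ UTR peak and exon peaks of 2.28-, 2.14-, 2.04-, 1.96- and 1.76-fold had an FDR above 0.05.

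The 10 highest folds were taken over genes with an FDR of at most 0.05 and no predicted name. Dhx9, an RNA helicase, stood apart at 2660-fold in its 3′ UTR (chr1:153455758-153459622; 1736 exonic bases). Zbed4, a zinc finger gene, followed at 655-fold, Fam98b, part of the tRNA ligase complex, at 488 and Kctd1 at 448 in its 5′ UTR. Hexim1, the inhibitor of the elongation kinase P-TEFb, was listed at 359-fold (chr11:103116231-103118560) and Maf, a transcription factor of macrophage self-renewal and identity, at 306 (chr8:115683747-115707096). Capns1, the small calpain subunit, and Senp3 were both at 283, Vkorc1l1 at 272 and Ahnak2 at 268. Of these 10, 6 lay in a 3′ UTR, 2 in a 5′ UTR and 2 in an exon by the annotation. The exon peak given to Capns1 was annotated to an exon of another gene model.

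Within parts, the strongest 5′ UTR peaks after Kctd1 and Senp3 were in Capns1 (153-fold), Kdm3b, a histone demethylase (133), and Gtpbp2, a factor for stalled ribosomes (109). After Capns1 and Ahnak2, strong exon peaks were in the helicase gene Blm (73.5, exon 2 of 22) and the receptor kinase gene Grk2 (71.4, exon 18 of 22). The top 3′ UTR peaks were those of Dhx9, Zbed4, Fam98b, Hexim1 and Maf.

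Ranking by p gave other genes than ranking by fold. The log10 p was listed as minus infinity for 21 peaks with folds from 33.9 to 71.1. Among them were Gcc1 (71.1), Plekhg3 (64.0), Mex3d (62.9), Brwd1 (48.2), Tnrc6c (41.0) and Kmt2d (40.5). Of the peaks with a finite log10 p, the lowest was the 3′ UTR peak of Lpl, lipoprotein lipase, at -58900 and 25.4-fold (chr8:68901203-68906641). Jun, an AP-1 subunit, followed at 73.2-fold and a log10 p of -13000 (chr4:95049034-95052222). C3ar1, the C3a receptor, was at 12.1-fold, Tnfaip8l2 at 31.2, Ptafr, the receptor for platelet-activating factor, at 15.9, Vsir (VISTA) at 12.8 and Itgb5 at 19.5. Ctsb, the lysosomal protease cathepsin B, had a log10 p of -5850 with a fold of 1.79. Another peak of low p, 14.5-fold and named for Vps13d, lay in Tnfrsf1b, the TNF receptor 2 gene.

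The strongest listed peak of a gene had a lower fold in the most abundant transcripts. Peaks are listed only with a p of at most 0.05, and the part of that limit in the folds by level was not tested. Of the genes with a peak, 3987 have a listed WT input level above 0. In 5 classes of equal size by that level the median of the strongest fold was 9.18, 9.29, 6.65, 5.61 and 3.05 from the lowest (median 0.349 FPKM) to the highest (40.7 FPKM). Peaks per gene were 1.89, 2.25, 2.16, 2.04 and 1.73 on average. Across these genes, which share both libraries, Spearman's rho between level and strongest fold was -0.34, and between level and peaks per gene -0.06. The exon share of peaks was 27% in the lowest and 15.8% in the highest class. The listed folds also repeat: 7.14 was given to 728 peaks, 8.16 to 530 and 5.10 to 346. A whole multiple of 1.02, to the digits listed, was found for 50.8% of folds from 4 to 10, 54.9% of those of at least 10, 12.1% of those from 2 to 4 and 0% of those under 2. Some high folds repeat as well, as 73.5 with the same listed p in both Blm and Ndufs4. Peaks that share a listed fold cannot be ranked by it, and what sets the repeated values was not tested.

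**Figure D3:**
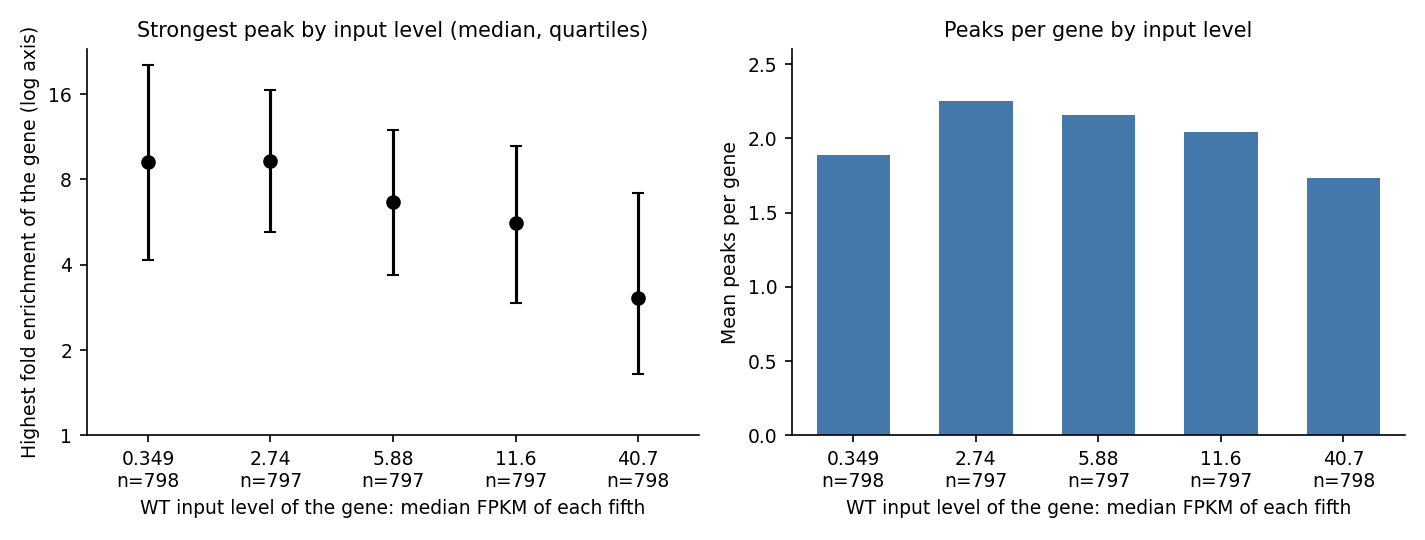
Genes with a peak and a listed WT input level, in 5 classes of equal size by that level (x axis, median FPKM and number of genes). Left, median of the highest fold enrichment of each gene (points, log axis) with quartiles (lines); right, mean number of peaks per gene (bars). The median strongest fold is 9.18 in the lowest class and 3.05 in the highest class, and peaks per gene lie between 1.73 and 2.25.

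Of 13 genes of the m6A writer complex and related RNA methyltransferases, 9 had a peak (69.2%; 38.6 to 90.9), beside 35.2% of all protein-coding genes, and their 16 peaks had a median fold of 6.47. Rbm15b, an adaptor that brings the complex to RNA, had 3′ UTR peaks of 33.4- and 15.0-fold. Its paralogue Rbm15 had an 18.8-fold peak annotated to its 5′ UTR over 3293 bases, one of 2.38-fold in the 3′ UTR and one of 2.04-fold with an FDR above 0.05. Zc3h13, a scaffold of the complex, had a 16.9-fold exon peak over 4069 bases in 11 blocks and a 7.02-fold 3′ UTR peak. Single peaks were listed for Wtap (8.86-fold), the ligase Cbll1 (6.83) and Mettl16 (1.93), which methylates U6 snRNA, all in the 3′ UTR, and for Virma, an exon peak of 4.70-fold. Pcif1, the m6Am writer, had 4 peaks from 1.68- to 14.3-fold, the lowest lying in Zfp335, and Mettl5, a ribosomal RNA methyltransferase, had one of 2.59-fold. The catalytic core genes Mettl3 and Mettl14 had no listed peak, and neither did Trmt112 and Zcchc4 by the authors' names, although a 13.3-fold peak overlapped Zcchc4.

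Among demethylases and readers, 9 of 15 had a peak (60.0%; 32.3 to 83.7), with a median fold of 2.04 over 20 peaks. The strongest were in YTH readers. Ythdc1, the nuclear reader, had 6 peaks, one of 15.4-fold in the 3′ UTR over 5210 bases and the others from 1.32 to 2.13. Ythdf2, which directs RNA to decay, had a 13.3-fold exon peak, an 8.16-fold 5′ UTR peak and 3′ UTR peaks of 6.45 and 1.67, the last with an FDR above 0.05. Ythdf3 had a 9.69-fold 3′ UTR peak in 8 blocks, Ythdf1 one of 2.27 and Prrc2a an 8.18-fold exon peak beside 2 weaker ones. The demethylase genes had weak peaks, Fto one of 2.26-fold in the 5′ UTR and Alkbh5 one of 1.25-fold with an FDR above 0.05. Fmr1 had a 3.40-fold peak with an FDR above 0.05, and Hnrnpa2b1 peaks of 1.95 and 1.09. Ythdc2, Igf2bp1, Igf2bp2, Igf2bp3, Hnrnpc and Elavl1 had none.

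Every one of 20 myeloid transcription factor genes carried a peak (83.2 to 100%), with a median fold of 5.71 over 40 peaks, beside 3.57 for all protein-coding genes. By overlap with 1 gene it was 19. Cebpd had a 142-fold 3′ UTR peak over 1888 bases. Gfi1 had a single 3′ UTR peak of 45.9-fold. Maf, whose first peak is given above, had further peaks of 16.2 in the 3′ UTR and 2.98 in an exon. Bhlhe40 reached 13.0-fold and Tfec 12.9, both in the 3′ UTR. Zeb2 had 5 peaks, of which 3 exon peaks of 7.14 to 9.18 had an FDR above 0.05. Spi1, which encodes the myeloid master regulator PU.1, had one of 3.19 in the 5′ UTR. By overlap Spi1 also held one of 4.23 in a 3′ UTR, named for Mybpc3. Irf8 had one of 3.21 in the 3′ UTR and one of 7.14 in an exon with an FDR above 0.05. Nr1h3, the oxysterol receptor LXR alpha, had a single 2.15-fold peak with an FDR above 0.05.

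Immediate early genes, switched on within minutes of a stimulus and quickly degraded, carried a peak in 23 of 25 cases (92.0%; 74.0 to 99.0), with a median fold of 5.51. After Jun at 73.2, the highest were Myc with 20.7 in the 3′ UTR and 10.2 in the 5′ UTR, Egr2 with 14.5, Jund with 11.5 and Ier5 with 11.4, each in the 3′ UTR. Egr3 and Btg1 had 3 peaks each, and all 3 of Egr3 had an FDR above 0.05. Fosl1 had no peak, and a peak within Ier3 was named for another gene.

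Genes of macrophage surface identity carried weak peaks. Of 26, 17 had one (65.4%; 44.3 to 82.8) and 21 by overlap, but the median fold was 1.67 (quartiles 1.4 to 2.43). With peaks of at least 4-fold the share was 19.2%, beside 21.6% of all protein-coding genes. Their listed input levels had a median of 153 FPKM, beside 5.88 over all genes with a peak and a level; the part of this in the lower folds was not tested. Fcgr1, the high-affinity IgG receptor, stood highest at 27-fold in the 3′ UTR over 1935 bases. Fcgr2b reached 5.99, Cd14 4.17 in the 5′ UTR and Sirpa 3.99. Tyrobp was at 1.13, Fcer1g at 1.32 and Trem2 at 2.21, and the 1.34-fold peak named for Lyz2 overlapped no protein-coding gene. The 8.16-fold peak named for Csf1r lay in Pdgfrb, and both that peak and the 8.16-fold peak of Marco had an FDR above 0.05. Adgre1 and Cd68 had no peak. Housekeeping genes lay near them, with a peak in 13 of 28 (46.4%; 27.5 to 66.1), a median fold of 1.70 and a median level of 221 FPKM. Pgk1 had 3.14 and Ppia 1.98, while Actb and Gapdh had no peak.

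Of the genes of Toll-like receptor signalling, 26 of 34 had a peak (76.5%; 58.8 to 89.3), beside 35.2% of all protein-coding genes, 68.3% of the 41 peaks lay in a 3′ UTR, and the median fold was 2.89. Of 12 Toll-like receptor genes 9 carried one, at a median of 5.04-fold and a median length of 2000 bases. Tlr4, the lipopolysaccharide receptor, stood highest at 39.4-fold over 3466 bases (chr4:66839232-66842697). Tlr3 had 9.29, Tlr9 8.63, Tlr2 7.46 and Tlr6 6.57, all in the 3′ UTR by the annotation. Downstream, the kinase adaptor Tab2 had a 79.6-fold 5′ UTR peak over 3382 bases and 4 others under 3-fold, and the ligase Traf6 a 15.1-fold 3′ UTR peak over 2908 bases. The adaptor genes Ticam2 and Ticam1 reached 8.16 and 5.28, the former in a peak that also overlapped Tmed7. Myd88, Irak4 and Ly96 had no peak.

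Brakes on inflammatory signalling carried a peak in 21 of 28 cases (75%; 55.1 to 89.3), with a median fold of 3.58. Nlrx1, a mitochondrial brake on antiviral signalling, held a 30.1-fold 3′ UTR peak by overlap, named for another gene, and one of 6.12 under its own name. Socs1, which blocks JAK kinases, had 12.2-fold in the 3′ UTR over 2548 bases, and Tnfaip3 (A20) 11.8 in the 3′ UTR and 8.16 in an exon. The phosphatase gene Dusp2 was at 10.7, Tnip3 at 10.3 and Socs3 at 9.18, all in the 3′ UTR. Cyld and Zfp36l2 had 4 peaks each, but 2 of Cyld lay in Nod2, the strongest at 9.18, and 2 of Zfp36l2 in Thada. Over the whole SOCS family, 7 of 8 genes had a peak (median fold 7.09), with Socs6 at 26.4 and Socs5 at 14.1. Nfkbia, Cish and Tollip had none.

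Cytokine genes were marked at about the share of all genes, 10 of 30 (33.3%; 17.3 to 52.8), and the chemokine family in 4 of 37 (10.8%; 3.03 to 25.4). Csf1, the growth factor of these cells, had a 26.0-fold 3′ UTR peak over 3282 bases in 6 blocks. Vegfa had 18.4 in the 3′ UTR and 10.4 in the 5′ UTR, Tgfb1 15.3 in an exon and Il16 4.85. Tnf, Il15 and Pf4 had single peaks under 3-fold with an FDR above 0.05, and Il1b, Il6, Il10, Ccl2 and Cxcl10 had none. Of the receptor genes for cytokines and growth factors, 18 of 28 had a peak (64.3%; 44.1 to 81.4) and 25 by overlap, 85.7% of the peaks in a 3′ UTR. By overlap, the interferon receptor gene Ifnar2 held a peak of 34.0-fold and the IL-10 receptor gene Il10ra one of 24.4, both in a 3′ UTR and named for other genes. Among named peaks, Il21r reached 23.1, Tnfrsf11a (RANK) 17.5, Il6st (gp130) 13.1 and Il17ra 9.74. The 252-fold peak named for Il6ra lay in no RefSeq protein-coding gene, and Il6ra itself held one of 8.00. Ccr7, a homing receptor, had a 98.0-fold 3′ UTR peak (chr11:99144196-99145334).

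Interferon-stimulated genes had a peak in 18 of 30 cases (60.0%; 40.6 to 77.3; median fold 2.62). Isg15, a ubiquitin-like modifier, reached 18.4-fold, Irf9 14.3 in the 5′ UTR and Ifit2 12.9. Gbp7, a guanylate-binding protein gene, held a 79.4-fold 3′ UTR peak by overlap, while the 32.9-fold peak with its name lay in Gbp5 and the 19.4-fold peak named for Isg20 in Aen. Of 9 interferon regulatory factor genes 8 had a peak, and by overlap with 1 gene 6. Irf4 had a peak of 72.5-fold (chr13:30755216-30764376). Mx1, Oas2 and Ifih1 had none.

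Antigen presentation genes carried a peak in 15 of 18 cases (83.3%; 58.6 to 96.4). Ciita, the switch of MHC class II transcription, had a 37.8-fold exon peak over 3389 bases in 14 blocks, and the co-stimulatory ligand gene Cd80 a 31.6-fold 3′ UTR peak. The peptide loading genes Tapbp and Tap2 reached 19.1 (also over Zbtb22) and 17.8 within the gene, and a 20.4-fold peak named for Tapbp lay in Zbtb22. Peaks of several MHC chains were lower, with B2m and H2-Aa at 1.28, H2-D1 at 1.43, H2-Eb1 at 1.55 and H2-K1 at 2.17. H2-DMa, another chain, had a 14.3-fold 5′ UTR peak with an FDR of at most 0.05, and H2-Ab1 had 8.16 with an FDR above 0.05. Cd40 had no peak.

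Lipid genes carried a peak in 22 of 28 cases (78.6%; 59.0 to 91.7), none of the 30 annotated to an exon outside the UTRs. Insig2 (28.6, 5′ UTR) and Lpl (25.4) were the highest, and the cholesterol exporter gene Abca1 (8.12) and Scap (6.63, 5′ UTR) were among the next. Peaks of Apoe (1.81), Fabp4 (1.28) and Fabp5 (1.42) were weak, and Plin2 and Hmgcs1 had none. Phagocytosis and lysosome genes had a peak in 12 of 30 cases (40.0%; 22.7 to 59.4; median fold 1.92), at a median level of 228 FPKM. Tfeb, the transcription factor of lysosome genes, stood highest at 6.35 in the 5′ UTR, while Lamp1 had 1.25 and Ctsd, Ctsl, Ctss and Npc1 had none by the authors' names.

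Cell death and p53 genes had a peak in 23 of 28 cases (82.1%; 63.1 to 93.9), at a median of 4.08-fold. By overlap, Bcl2, which blocks apoptosis, held a 23.5-fold peak and the nuclease gene Aen one of 19.4, both in a 3′ UTR and named for other genes. Peaks with their own name reached 15.2 in Aen, 10.2 in the caspase inhibitor gene Xiap (5′ UTR), 8.47 in Mcl1 and 8.16 in Fas and Bcl2 (5′ UTR), while a 28.6-fold peak named for Phlda3 lay in Csrp1. Autophagy and stress genes had a peak in 17 of 30 (56.7%) and in 23 by overlap. Hmox1, heme oxygenase, had a 96.9-fold 3′ UTR peak of 120 bases, Ddit4 23.5, Atg2a 22.4, Eif2ak2 18.7 and Keap1 15.9. By overlap, Mtor held a 25.5-fold peak, Keap1 one of 24.5 and Trib3 one of 23.5, each named for another gene. Cell cycle genes had a peak in 16 of 28 (57.1%) and 46.2% of their 39 peaks in exons, 11 of those 18 in Mki67. Mcm7 reached 19.4 and Rb1 13.3 (also over Lpar6), and Cdk1, Ccnb1, Plk1 and Top2a had none.

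Among markers of other cell types, every list except T and NK cells had an interval that included the 35.2% of all protein-coding genes. These intervals were wide, as 2.52 to 55.6% for B cell markers and 18.7 to 81.3% for osteoclast markers. The intervals of all these lists overlapped, so the counts below do not show a difference among cell types. T and NK cell markers had 0 of 14 by the authors' names, which allows a share of up to 23.2%. By overlap a 2.41-fold peak with an FDR above 0.05 lay in Cd4. B cell markers had 2 of 10, erythroid markers 1 of 10, mast cell markers 2 of 9 and progenitor markers 2 of 10, and of the peaks in these lists that of Ighm alone, at 1.69-fold, had an FDR of at most 0.05. Neutrophil markers had 5 of 14 and stromal markers 5 of 12, with 2 of 7 and 3 of 6 peaks at an FDR of at most 0.05. Dendritic cell markers had 4 of 10, with Ccr7 at 98.0-fold, and 3 of their 9 peaks had an FDR of at most 0.05. Osteoclast markers had 5 of 10, with Ocstamp, a fusion protein gene, at 12.2 and Tnfrsf11a at 17.5.

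**Figure D4:**
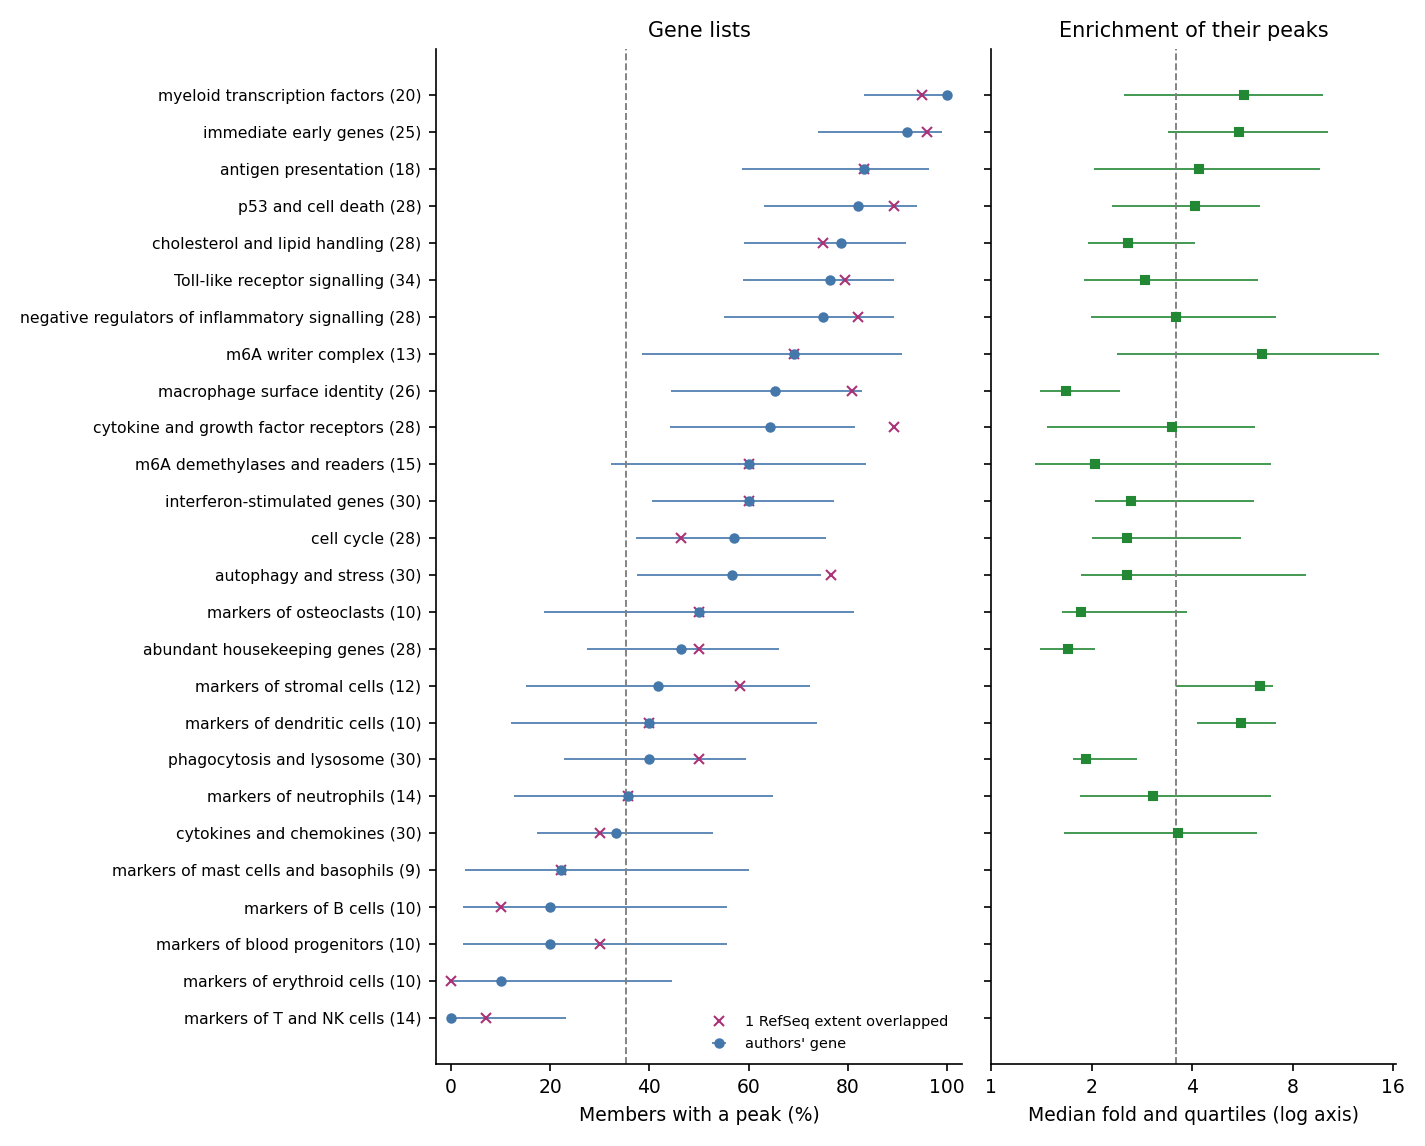
Gene lists with their number of members: left, share of members with a peak (%, circles with 95% exact binomial intervals, by the authors' gene names; crosses, by overlap with exactly 1 RefSeq protein-coding gene), right, median fold enrichment of the peaks with quartiles (log axis; lists with at least 5 peaks). Dashed lines mark all protein-coding genes (35.2% and 3.57-fold). Myeloid transcription factors and immediate early genes lie at the top on the left and at 5.71 and 5.51 on the right, and macrophage surface and housekeeping genes lie at 1.67 and 1.70.

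Across 37 gene families, 28 had a share of members with a peak above the 35.2% of all genes, expressed or not. Genes named Zfp, most of them C2H2 zinc finger genes, had a peak in 274 of 397 cases (69.0%; 64.2 to 73.5), a median fold of 5.91 and 2.21 peaks per gene with one, beside 1.78 over all genes. Zfp768 (100-fold, 5′ UTR), Zfp964 (95.9), Zfp503 (90.7) and Zfp451 (88.3) had the highest named peaks that overlapped their gene, and a 63.3-fold peak named for Zfp712 lay in Zfp708. Their listed input level was low, with a median of 2.12 FPKM over 132 genes.

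Chromatin regulators had many peaks per gene. Lysine methyltransferase and demethylase genes had one in 39 of 44 cases (88.6%; 75.4 to 96.2) and 2.62 per gene, 42.2% of them in exons against 21.8% over all genes. Setd2 had 8 peaks, Kmt2d and Kmt5b 6 each, and the highest folds were in Kdm3b (133, 5′ UTR), Nsd1 (45.6, 5′ UTR), Kmt2d (40.5), Kmt5b (30.1) and Kdm2b (21.4, 5′ UTR). Bromodomain, CHD and SMARC remodeller genes had one in 35 of 47 cases (74.5%; 59.7 to 86.1) with 2.51 per gene, led by Chd3 (37.4, 5′ UTR), Chd7 (36.8), Chd6 (16.7) and Chd2 (15.3), and Brd2 had 7 peaks, 4 of them in the 5′ UTR.

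Families of RNA handling are read beside the same 35.2% of all genes. DEAD and DEAH box helicase genes had a peak in 37 of 53 cases (69.8%), with Dhx33 at 31.3, Ddx11 at 28.6 and Ddx20 at 26.5 after Dhx9. For hnRNP genes it was 17 of 20 (85.0%; 62.1 to 96.8) and 14 by overlap, at a median of 2.31-fold, with Hnrnpll at 14.3 and Hnrnpdl at 13.9. Serine and arginine rich splicing factor genes had one in 10 of 17 (58.8%; 32.9 to 81.6), an interval that includes the all-gene share. Tra2a of this family had a 142-fold 3′ UTR peak (chr6:49244523-49245917), and the next highest was Srrm2 at 13.8.

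Among ubiquitin enzymes, ubiquitin-specific proteases had a peak in 36 of 50 cases (72.0%), led by Usp12 (53.1) and Usp10 (44.8, 5′ UTR), Rnf ligases in 44 of 80 (55.0%), F-box genes in 36 of 78 (46.2%), led by Fbxw7 (43.3), and Trim ligases in 31 of 68 (45.6%), led by Trim56 at 157-fold over 4791 bases. In signalling families, dual specificity phosphatases had 15 of 24 (62.5%), with Dusp16 at 23.1 and Dusp5 at 18.4, and kinases of the MAP kinase cascade 23 of 46 (50.0%), with Mapk3 (ERK1) at 39.5 in its 5′ UTR. Of their 43 peaks, 32.6% lay in a 5′ UTR, beside 15.2% over all protein-coding genes. Kruppel-like factors had 9 of 17, with Klf13 at 37.9 and Klf9 at 23.3.

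Several families of housekeeping function had peaks of low enrichment. Cytosolic ribosomal protein genes had one in 34 of 84 cases (40.5%; 29.9 to 51.7; 47 by overlap) at a median of 1.56-fold, and none had more than 2. Their listed input level had a median of 131 FPKM. The highest were Rps19 (11.2, in an exon) and Rpl18 (8.50, 5′ UTR, overlapping Sphk2). Nuclear-encoded respiratory chain genes had one in 40 of 83 (48.2%) at 1.62-fold and 47.5 FPKM. Ndufs4 had the highest listed fold of these, 73.5 in its 3′ UTR, while a 17.3-fold peak named for Cox8a lay in Naa40. Proteasome genes had 22 of 48 (45.8%) at 2.35-fold. Mitochondrial ribosomal protein genes, with a median of 9.18 FPKM, had 50 of 77 (64.9%; 53.2 to 75.5) at 2.72-fold, and 85.7% of their peaks lay in a 3′ UTR. Translation factors had 37 of 70 (52.9%) at 2.48-fold.

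At the other end stood families best known from other tissues. Olfactory receptors had a peak in 4 of 1106 cases (0.362%; 0.0986 to 0.923), vomeronasal receptors in 1 of 353 and keratins in 1 of 101. The 188-fold peak named for Olfr56 lay in a neighbouring gene, and so did the peaks named for Olfr1396 and Vmn2r118, in Ifi47 and Pot1b. HOX genes had 3 of 39, with Hoxb3 at 21.4 and Hoxb4 at 15.5. Histone genes, whose main transcripts lack a poly(A) tail, had 16 of 81 (19.8%; 11.7 to 30.1), led by H3c14 at 166-fold, whose 3 peaks form 1 region, and H3c15 at 52.0.

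**Figure D5:**
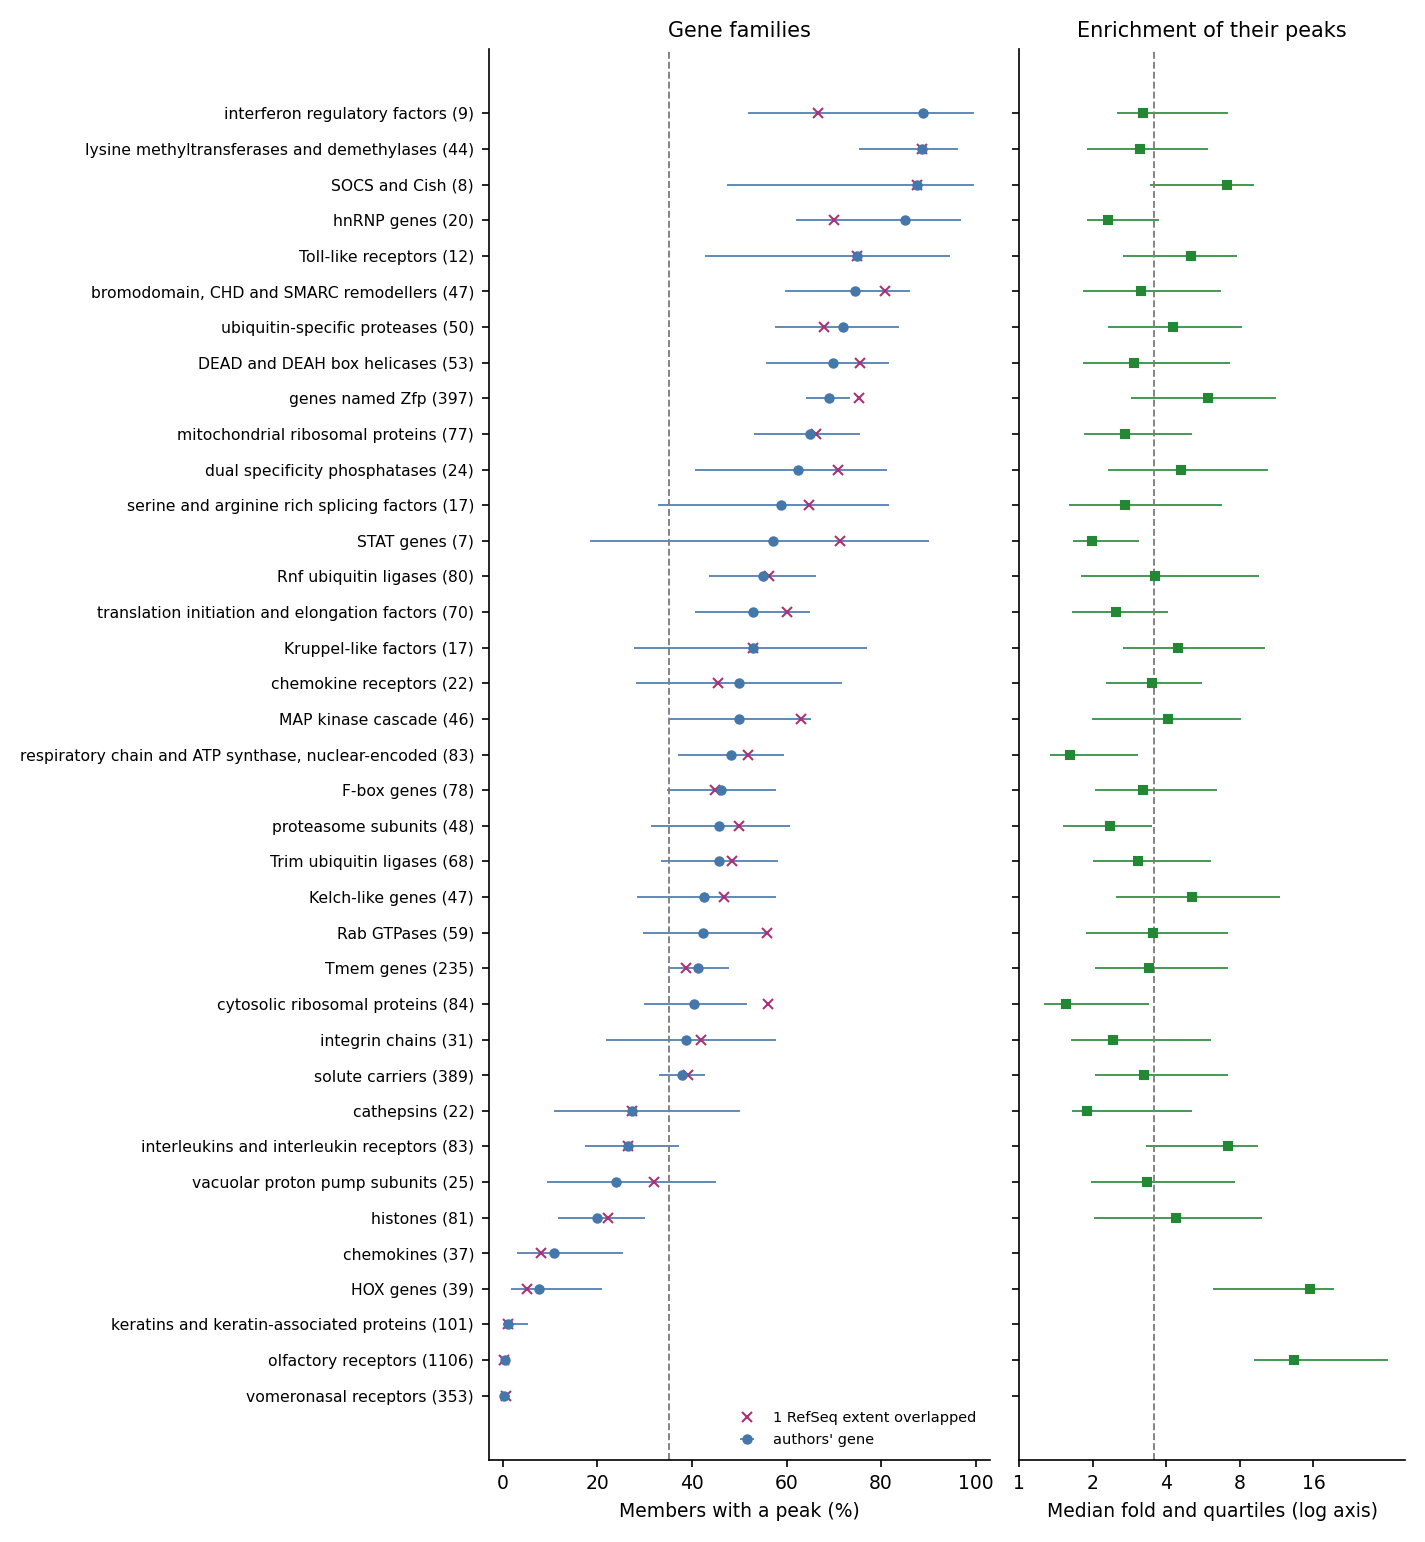
Gene families with their number of members, drawn as for the gene lists: left, share of members with a peak (%, circles with 95% exact binomial intervals; crosses, by overlap with exactly 1 RefSeq protein-coding gene), right, median fold enrichment with quartiles (log axis; families with at least 5 peaks). Dashed lines mark all protein-coding genes (35.2% and 3.57-fold). Lysine methyltransferases and demethylases lie at 88.6% and genes named Zfp at 69.0% and 5.91-fold, while ribosomal proteins lie at 40.5% and 1.56-fold.

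Among noncoding RNAs, 8 of 20 listed regulatory long noncoding RNA genes had a peak, and 94.4% of their 18 peaks were annotated to an exon. Kcnq1ot1, the antisense RNA of an imprinted domain, had a 21.4-fold peak over 2850 bases. Xist, which coats the inactive X, had 7 peaks, of which those of 12.5-fold over 1529 bases and 6.28-fold over 750 bases stood above the other 5 (1.14 to 1.33). Tug1 reached 12.2 over 1648 bases, and Neat1, the scaffold of paraspeckles, had peaks of 1.3 and 1.32. Malat1, Gas5 and Meg3 had none.

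Of 1005 RefSeq microRNA hairpins, 33 had at least 1 base in a peak, 23 lay wholly in one, and 20 did so in a peak with an FDR of at most 0.05. Poly(A) RNA holds host transcripts and precursors rather than mature microRNAs, and a hairpin in a peak says only that the stretch is covered. Of the 20, 6 lay in a peak of at least 10-fold: Mir671, Mir1896, Mir6363, Mir7654, Mir1199 and Mir6244. The lowest FDR of these was for Mir671 (chr5:24592114-24592211, plus strand), which lay in Chpf2 under peaks of 11.7-, 11.8- and 11.9-fold that cover the same stretch. Its mature arms are shown to mark that stretch, with the seed (bases 2 to 8) in capitals.
mmu-miR-671-5p: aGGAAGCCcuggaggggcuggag
mmu-miR-671-3p: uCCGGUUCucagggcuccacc

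The miR-671 arms have different seeds. Mir1896 lay in Zscan26 (13.4- and 13.6-fold), Mir7654 in the 5′ UTR of Arglu1 (12.6), Mir1199 in that of Misp3 (11.2) and Mir6244 in Zc3h12c (10.5 and 9.18), and the 12.1-fold peak over Mir6363 overlapped no protein-coding gene. Mir24-1 and Mir3074-1, hairpins on opposite strands of one locus, lay wholly in a 5.34-fold peak named for Aopep. Most peaks named for a microRNA did not cover it: 145 microRNA genes of the table were named by 183 peaks, and 18 of them had a peak over the hairpin.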

How the data were processed

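RNA from WT macrophages was measured by m6A-seq in 1 IP and 1 input library. Sample titles gave the groups. Per the submitters' processing notes, the build was mm10 and the tools were edgeR, StringTie, ChIPseeker, HOMER, HISAT2 and fastp, with no step named; a peak caller is not stated there. The deposited WT list gives for each peak, per the file headers, an enrichment fold (the ratio between IP and input), a p-value and log10 scores of the p and of the FDR; nothing was pooled. Its p-values reach 0.05. Input FPKM are the authors' values, listed per the file headers for genes of the table that compares the genotypes.

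Transcript parts are the authors' annotation, and "exon" means an exon outside the UTRs or of a noncoding transcript. Starts in the list count from 0 and were raised by 1. Exonic blocks were compared with RefSeq gene extents (GRCm38.p6) with a minimum overlap of 1 base and without strand, which the list does not give for peaks. Gene names were matched by symbol and synonym, and 92.0% of peaks had a match. Promoter and microRNA sequences are RefSeq's. The routines were tested on simulated regions and counts. Calculations used scipy 1.17.1, pandas 2.3.3 and numpy 2.4.6 under Python 3.11.15, and figures matplotlib 3.10.9. The sequence windows shown are the 4 of highest fold among qualifying genes not on chromosome 18.

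The members and lists (27 lists, 540 genes, 18 of them in more than 1, and 37 families) were chosen with earlier results of these data known. The rule for named genes took the 10 genes with the most peaks, the 10 highest-fold peaks with an FDR of at most 0.05 and no predicted name, 1 per gene, the 10 lowest p, the 5 highest folds per part, all writers, demethylases and readers, and in each list or family up to 5 members with the highest fold, up to 3 with the most peaks, and members without a peak. Some results the rule covers are not reported here. Other members were named after their values were seen. No column of per-sample values was left unused for lack of a sample. Alternatives were a fold of at least 4, a p of at most 1e-10, an FDR of at most 0.05, peaks overlapping their assigned gene, and merging within 100 bases; the assignment by overlap and the joining of peaks that share a base were added after seeing the data.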

Additional observations from a re-analysis of the deposited data

How the results depend on the processing

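Each limit was applied to the list in turn. With a fold of at least 4, a p of at most 1e-10, an FDR of at most 0.05, or peaks that overlap their assigned gene, the 3′ UTR share was 58.3%, 70.6%, 63.1% and 56.3%. The 5′ UTR share was 14.2%, 13.6% and 15.8% under the first, the third and the fourth, and the exon share 16% at the stricter p and 23.2% at the FDR limit. Protein-coding genes with a peak fell to 4720 and 3499 under the first and second limits. Genes with 1 peak made up 75.6%, 81.0% and 66% under the first, the second and the third, 63.0% when peaks within 100 bases were merged and 52.0% by overlap. Genes with 5 or more peaks numbered 23, 5 and 71 under those limits and 124 after merging. The median exonic length was 865, 1050, 569 and 419 bases under the limits in order, and the share with more than 1 block 51.4%, 62.3%, 44.0% and 41.9%, or 39.7% after joining peaks that share a base; the cause was not tested. Fewer peaks enter under each limit. Of 37 families, 7 crossed the share of all genes at a fold of at least 4, among them ribosomal proteins, proteasome subunits and the respiratory chain, and 7 did so at the stricter p. Of 27 lists, 7 crossed it at a fold of at least 4 (macrophage surface identity, phagocytosis and lysosome, cell cycle, housekeeping and the markers of neutrophils, osteoclasts and mast cells), 6 at the stricter p and 2 at the FDR limit. The planned search of whole peaks for motifs was not run, since no genome was used here. No paired analysis was possible because there is 1 IP and 1 input library. Depth sets which weakly expressed transcripts can show a peak, and it is unknown here.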
